A study of Homo sapiens with 108 samples.

Results

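The CNOT4 knockdown arm of a SLAM-seq time course in HEK293T cells was compared with its non-targeting arm (NT) over the first hours of a uridine chase. The members were the libraries titled CNOT4 knockdown and those titled NT knockdown at 0, 2 and 4 h of chase, 9 libraries in each arm and 18 of 108 in the series. The CNOT4 libraries at 8 h were left out, since their share of multimapped reads and the header of their tables differ from those at the earlier times. HEK293T is a transformed line from human embryonic kidney that carries the SV40 large T antigen. Cells of both arms were transduced with a lentiviral hairpin, selected in puromycin, grown in 10 µM 4-thiouridine (4SU) for 24 h with fresh medium every 8 h, and then moved to 1 mM uridine for the chase. Each arm and chase time had 3 replicates, which the labels call biological. The arm has 1 hairpin against CNOT4, so that effects of the hairpin sequence and of the knockdown cannot be told apart, and protein was not measured in these files. The comparison asks how the level and the turnover of mRNAs differ when cells carry a hairpin against CNOT4.

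CNOT4 is an E3 ubiquitin ligase with a RING domain, an RNA recognition motif and a CCCH zinc finger, and it binds the CCR4-NOT complex. CCR4-NOT shortens poly(A) tails, a step that usually comes before decapping by DCP2 and decay from the 5′ end by XRN1, and proteins such as TNRC6, TTP family members and Roquin bring it to chosen mRNAs. In yeast the Not4 orthologue also ubiquitinates ribosomal proteins when ribosomes stall. In SLAM-seq, RNA made in the presence of 4SU carries T-to-C conversions after alkylation, so that the share of converted T positions falls during the chase as labelled RNA is lost. QuantSeq libraries are read from the poly(A) end, so that levels refer to 3′ ends.

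The hairpin strands are shown because they set which CNOT4 mRNAs are targeted and how the counted 3′ ends lie relative to the target. They come from the study's list of hairpins for its knockdown RNA-seq. That the same hairpins were used for these libraries is assumed, since the SLAM-seq methods refer back to that transduction. The capitals mark the 6 bases that lie in the downstream one of 2 exons.
CNOT4 hairpin, sense strand: gcctcttcacatcagAAACAA
NT hairpin, sense strand: caacaagatgaagagcaccaa
The listed CNOT4 strand crosses the junction of exon 9 and exon 10 (hg38, minus strand, chr7:135395634-135395648 and chr7:135394410-135394415). It matches 10 of the 14 CNOT4 transcripts of GENCODE 44, 9 of them within coding sequence, and 0 transcripts of other genes. The NT strand matches 0 GENCODE transcripts. Each of the 3 counted CNOT4 intervals that held reads lies downstream of the target, and all transcripts that end in them carry the match.

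Summed over its intervals, CNOT4 mRNA did not differ between the arms. Its level had a lowest, median and highest value of 0, 40.8 and 65.1 CPM (TMM-normalised counts, scaled to the counted reads of a library) in CNOT4 libraries and of 23.2, 43.7 and 57.9 CPM in NT libraries (log2 difference -0.03, SE 0.47, adjusted p = 0.97 in edgeR's quasi-likelihood test). The library with 0 reads was CNOT4 2 h replicate 3, and the other CNOT4 libraries lay across the range of NT. The gene sum therefore did not separate the arms as their labels name them. The labels say that the knockdowns were checked by qPCR, whose values were not analysed here.

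Taken one by one, a choice made after the values were seen, the 3 CNOT4 intervals did not move together. In the last interval (chr7:135361796-135362887, 1092 bases of 3′ UTR where 5 transcripts end), RPM (reads scaled to the counted reads of a library, with no TMM) was 0, 10.3 and 16.5 (lowest, median and highest) with the CNOT4 hairpin and 17.3, 31.9 and 35.0 with NT. The arms did not overlap there, and the mean was 10.5 ± 5.56 in CNOT4 libraries and 29.4 ± 6.26 in NT libraries (SD, n = 9 each), which is 35.6% of NT (two-sided exact permutation p = 4.11e-05, the smallest that 9 against 9 allows, 0.000123 after adjustment over the 3 intervals). The value was 40.1% of NT without CNOT4 2 h replicate 3. Libraries are bulk, so that fewer affected cells and less RNA per cell cannot be told apart.

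Both other CNOT4 intervals were higher. The middle one (chr7:135384291-135384677) averaged 12.6 ± 8.12 RPM in CNOT4 libraries and 3.34 ± 5.32 in NT libraries, and the upstream one (chr7:135386152-135388796) averaged 19.4 ± 11.6 in CNOT4 libraries and 7.21 ± 4.14 in NT libraries (SD, n = 9 each, adjusted exact permutation p = 0.0136 for both). The arms overlapped in both. Of the reads pooled over libraries, 23.7% of those of CNOT4 lay in the last interval in CNOT4 libraries, against 73.9% in NT libraries. In the 9 libraries labelled ZFP36L1 at the same times, the last interval held 21.3 to 46.5 RPM, all above the CNOT4 libraries, while the middle and upstream intervals held 4.55 to 19.0 and 13.3 to 30.7.

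**Figure D1:**
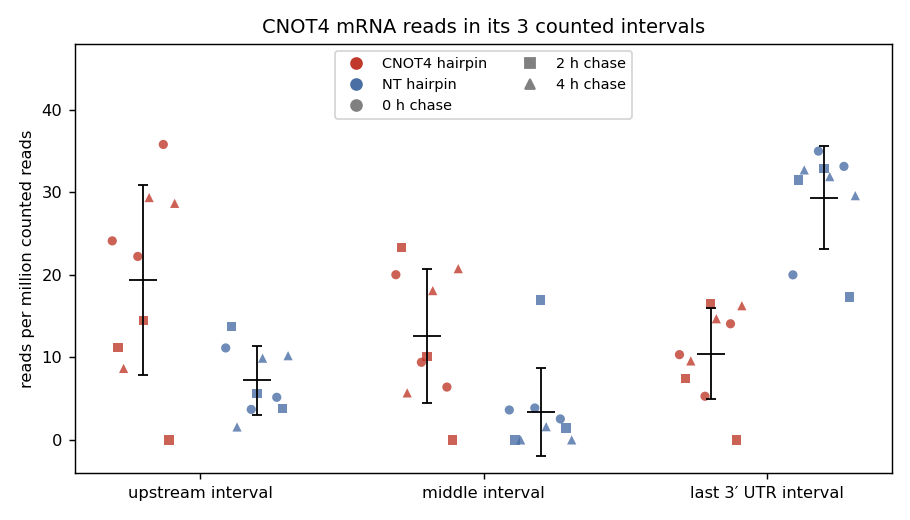
RPM, reads scaled to the counted reads of a library, in the 3 intervals of the CNOT4 mRNA, with a point for each library (red, CNOT4 hairpin; blue, NT; shape gives the chase time) and bars for mean ± SD over 9 libraries. In the last 3′ UTR interval all CNOT4 libraries, at most 16.5, sit below all NT libraries, at least 17.3, and in the other intervals the arms overlap.

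Several properties of the libraries moved with the arm. Reads in the counted intervals were 1781724 to 10300574 per CNOT4 library and 9693909 to 13359455 per NT library, multimapped reads were 9.34 to 11.9% in CNOT4 libraries and 6.66 to 6.91% in NT libraries, and covered T positions per read were 27.7 to 31.3 in CNOT4 libraries and 37.1 to 37.8 in NT libraries. The last 2 do not overlap (exact permutation p = 4.11e-05 each), and the part of these differences in the results below was not tested, since hairpin and library properties cannot be told apart. The libraries labelled ZFP36L1 had values like those of CNOT4 (10.2 to 12.4% and 25.9 to 30.5), and the other 6 knockdown arms like those of NT (6.22 to 7.37% and 35.7 to 38.0). CNOT4 2 h replicate 3, with the fewest reads, detected 6495 genes, against 11185 to 13333 in the other CNOT4 libraries and 11400 to 11794 in NT libraries. CNOT4 2 h replicate 1, with 2147447 reads, detected 12100. The log2 levels of CNOT4 2 h replicate 3 correlated at 0.582 to 0.637 with the other CNOT4 libraries, which correlated at 0.788 to 0.915 among themselves across genes. Of genes that mark HEK293T cells, 7 of 7 passed the filter for testing, VIM at 0.39 and NEFM at -2.54 (log2 difference) being the called ones. PAX2 was barely detected, with 45 reads in CNOT4 libraries, 49 in NT libraries and no reads in 7 libraries of each arm. Of the markers of other cell types, blood markers summed to 0 to 17.7 CPM in CNOT4 libraries and 1.05 to 14.6 CPM in NT libraries, hepatocyte markers (2 of 10 tested, the called one with 100% multimapped reads) to 1.36 to 58.7 and 0 to 1.26, fibroblast markers to 0 to 45.4 and 2.92 to 28, and keratinocyte markers to 0 to 6.33 and 0 to 4.15. The 1 keratinocyte marker tested, DSG3, was called higher, with 81 reads in CNOT4 libraries and 7 in NT libraries.

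Of 12978 genes tested, 1190 (9.17%) were higher and 1294 (9.97%) lower with the CNOT4 hairpin, at an adjusted p under 0.05 and a fold over 1.2. Without CNOT4 2 h replicate 3, 1962 were higher and 1888 lower. With library totals in place of TMM scaling the counts were 1485 higher and 1087 lower, and the median difference of all genes moved to 0.12 on the log2 scale, against 0.01. Of the 2484 genes called, 2418 had the same sign at 0, 2 and 4 h, 2460 kept their call without CNOT4 2 h replicate 3 and 2161 kept it in uniquely mapped reads. For a dependence of the difference on chase time, 0 of 12978 genes passed edgeR's test (346 at an unadjusted p under 0.05), and the genes nearest to it by the naming rule were RPS3, TNRC6C and RPS29. In 852 genes (6.56%) the libraries of the arms did not overlap, 292 of them higher (2.25%) and 560 lower (4.31%).

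The calls were uneven over the kinds of reads and sequences counted. Among 686 genes with at least 50% multimapped reads, 149 (21.7%) were higher and 54 (7.87%) lower, against 921 (8.25%) and 1111 (9.96%) of the 11157 genes with under 5%. Within those 11157 genes, the fifth with the lowest GC content in its counted bases had 6.23% higher and 13.4% lower, and the fifth with the highest had 11% higher and 4.35% lower. The heptamer TATTTAT, searched on the transcript's strand in the counted bases, was present in 36.9% of all higher, 34.7% of all lower and 38.9% of all genes tested. The median NT level was 42.2 CPM in higher, 168 CPM in lower and 27.7 CPM in all genes tested. Called genes thus had higher levels, and the list shares below are not matched for level.

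The largest rises among well-measured mRNAs were in genes of unlike functions. CAVIN1, which builds the coat of caveolae, had 38.0, 85.4 and 108 CPM (lowest, median and highest) with the CNOT4 hairpin and 0.0907, 6.72 and 19.0 CPM with NT (log2 difference 3.59, SE 0.60, adjusted p = 8.5e-05). EEF1A2, the elongation factor of muscle and neurons, had 50.8, 69.4 and 109 CPM with the CNOT4 hairpin and 2.92, 12 and 21.4 CPM with NT (2.80, SE 0.38). In both, every CNOT4 library lay above every NT library. REV3L, the catalytic subunit of DNA polymerase zeta, had 130, 217 and 539 CPM with the CNOT4 hairpin and 20.6, 41.5 and 67.1 CPM with NT (2.45, SE 0.25, adjusted p = 7.4e-08), and the arms did not overlap. The highest REV3L value was that of CNOT4 2 h replicate 3. An internal interval of REV3L held 169.6 RPM in CNOT4 libraries and 25.5 RPM in NT libraries, and its last interval held 29.8 RPM in CNOT4 libraries and 13.3 RPM in NT libraries. GOLGB1, which encodes the Golgi tether giantin, had 246, 390 and 882 CPM with the CNOT4 hairpin and 29.1, 63.9 and 136 CPM with NT, again without overlap, and most of its rise also lay outside its last interval. That interval held 51.6 RPM in CNOT4 libraries and 39.6 in NT libraries, and 1 internal interval held 260 in CNOT4 libraries and 23.2 in NT libraries. KCTD17, GPATCH8, CACNG8, HOXA6, RAC3 and EIF3K completed the 10 named rises, with log2 differences of 2.46 (EIF3K) to 3.44 (KCTD17). Of these, KCTD17, GPATCH8 and EIF3K overlapped between arms in 1 or more libraries.

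The largest falls included genes of cell death, amino acid supply and ribosome assembly. BAX, which permeabilises mitochondria in apoptosis, had 0, 9.33 and 21.1 CPM with the CNOT4 hairpin and 158, 168 and 207 CPM with NT (log2 difference -4.20, SE 0.37, adjusted p = 4.9e-09). SLC7A5, the LAT1 transporter of large neutral amino acids, had 12.1, 46.6 and 66.9 CPM with the CNOT4 hairpin and 347, 398 and 478 CPM with NT (-3.52, SE 0.25). Neither gene came near to overlapping between the arms. RRS1, a ribosome assembly factor, had 26.9, 40 and 56.6 CPM with the CNOT4 hairpin and 290, 335 and 483 CPM with NT (-3.12, SE 0.16). IARS2, the mitochondrial isoleucyl-tRNA synthetase, had 8.28, 24.7 and 43.4 CPM with the CNOT4 hairpin and 171, 235 and 289 CPM with NT (-3.23, SE 0.25). The arms were apart in both by more than the spread of either. QTRT1 and PUS7, which modify tRNA bases, TSPAN13, AKT1S1, SUDS3 and ANKRD46 had log2 differences of -2.55 (ANKRD46) to -3.04 (QTRT1), and only ANKRD46 overlapped among these 10. CNOT4 2 h replicate 3 had 0 reads of BAX, QTRT1, TSPAN13, AKT1S1, PUS7 and ANKRD46. Over the 20 rises and falls named here, 536 of 540 alternative settings kept the call and 0 reversed the sign. These genes were picked as the largest calls in the same libraries that most settings reuse, so the counts are not independent support.

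**Figure D2:**
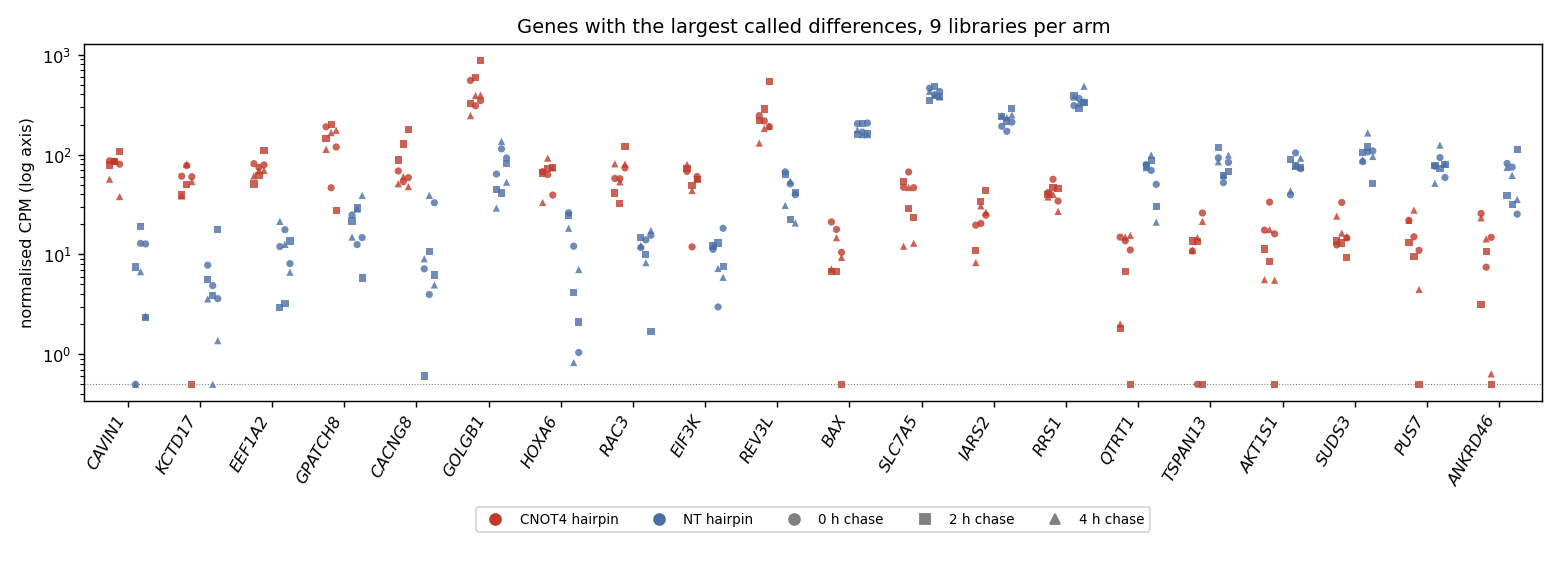
Normalised CPM on a log axis of the 10 genes with the largest rise (left) and the 10 with the largest fall (right), a point for each library (red, CNOT4 hairpin; blue, NT; shape gives the chase time, values under 0.5 drawn at 0.5). For BAX the CNOT4 libraries reach 21.1 CPM and the NT libraries start at 158 CPM.

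Among the CCR4-NOT subunits, 5 of the 11 tested fell and 0 rose, beside 9.97% and 9.17% of all genes. With library totals 4 fell and 1 rose. With DESeq2, and likewise without CNOT4 2 h replicate 3, 5 fell and 1 rose. The falls in the main test covered both kinds of catalytic subunit. CNOT6, a deadenylase of the CCR4 type, had 19.8, 41.4 and 74.5 CPM with the CNOT4 hairpin and 116, 152 and 173 CPM with NT (log2 difference -1.72, SE 0.24, adjusted p = 7.4e-06), with no overlap between the arms. CNOT8, of the CAF1 type, had 26, 45.0 and 77.4 CPM with the CNOT4 hairpin and 48.6, 95.2 and 174 CPM with NT (-1.20, SE 0.27, adjusted p = 0.0022). Their paralogues were less clear. CNOT7 was called at -0.65 (adjusted p = 0.039), but 13 of 27 alternative settings lost the call, and CNOT6L stood at 0.72 (SE 0.29, adjusted p = 0.095). Over 27 alternative settings of the level test the adjusted p of CNOT6L was 0.0068 to 0.18.

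Of the non-catalytic subunits, CNOT11, which pairs with CNOT10, had 74.0, 102 and 151 CPM with the CNOT4 hairpin and 136, 197 and 258 CPM with NT (-0.93, SE 0.17). CNOT9, the subunit that binds TNRC6 proteins, had 91.3, 112 and 143 CPM with the CNOT4 hairpin and 137, 174 and 242 CPM with NT (-0.66, SE 0.15). In each only the tails of the arms met. The scaffold CNOT1 (0.20, adjusted p = 0.36), CNOT2 (-0.10), CNOT10 (-0.05) and CNOT3 (0.35, with 98.5% multimapped reads in each arm) did not pass the test. Summed over the subunits, levels were 804 to 985 CPM in CNOT4 libraries and 1107 to 1390 CPM in NT libraries. The list's median was -0.10, beside 0.01 for all genes. It was 0.01 with library totals, -0.38 among the 8 subunits with under 5% multimapped reads, -0.41 without CNOT4 2 h replicate 3 and -0.52 in uniquely mapped reads. In the libraries labelled ZFP36L1 against NT the list's median was also -0.10. Of the PAN2-PAN3 and PARN deadenylases 0 of 3 were called.

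**Figure D3:**
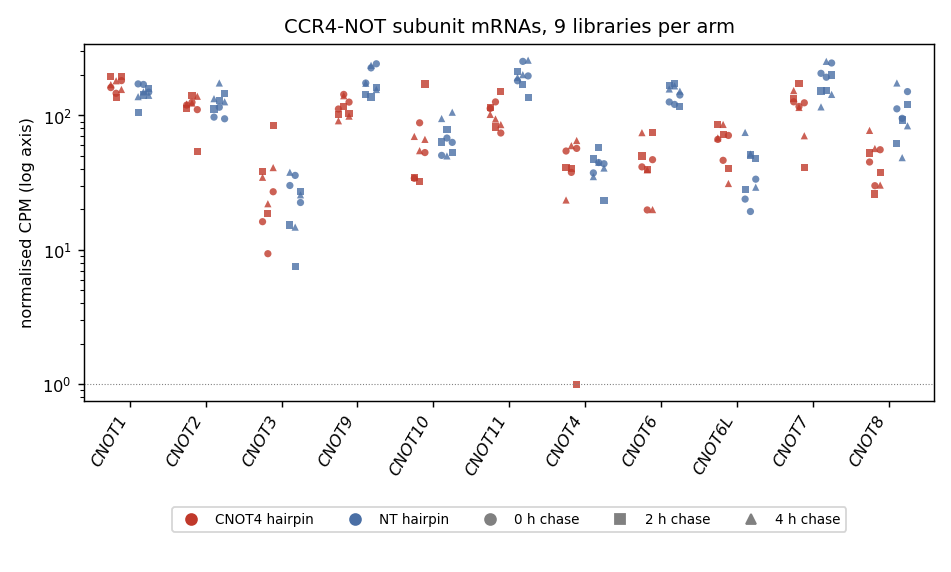
Normalised CPM on a log axis of the 11 CCR4-NOT subunit mRNAs, a point for each library (red, CNOT4 hairpin; blue, NT; shape gives the chase time, values under 1 drawn at 1). CNOT6 separates the arms, at most 74.5 CPM with the CNOT4 hairpin and at least 116 CPM with NT, whereas CNOT1 and CNOT2 overlap.

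Of 22 tested RNA-binding adaptors, proteins that recruit CCR4-NOT to mRNAs, 8 rose, 1 fell and 13 were not called, with a median of 0.45. Among all genes 9.17% rose and 9.97% fell. In the libraries labelled ZFP36L1 against NT the adaptors had a median of 0.30. TNRC6B, a GW182 protein that links Argonaute to the deadenylases, had 180, 263 and 328 CPM with the CNOT4 hairpin and 7.37, 71.0 and 89.7 CPM with NT (log2 difference 2.13, SE 0.28, adjusted p = 4.3e-06). ZFP36L1, a zinc-finger protein that binds AU-rich elements, had 90.1, 119 and 196 CPM with the CNOT4 hairpin and 7.28, 41.6 and 66.9 CPM with NT (1.79, SE 0.28). Both separated the arms. The Argonaute mRNA AGO3 also did, with 98.5, 119 and 200 CPM against 23.0, 43.8 and 78.3 CPM in NT libraries (1.47). AGO2 (0.79), TNRC6A (0.78), TNRC6C (0.85) and RC3H1, which encodes Roquin-1 (1.38), rose as well, TNRC6C and RC3H1 losing the call in 10 and 13 of 27 alternative settings. In the library CNOT4 2 h replicate 3, TNRC6C stood at 346 CPM and RC3H1 at 249 CPM, the highest values of the arm. ZFP36L2, the paralogue of ZFP36L1, fell (-0.83, adjusted p = 0.0026). BTG1, an antiproliferative protein that binds the CAF1 subunits, rose by 0.67 (adjusted p = 0.020) and was the 1 called gene of 5 BTG/TOB mRNAs tested, TOB2 standing at 0.66 (adjusted p = 0.050).

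Decapping and exosome factors act on the shortened mRNA. In the decapping list 8 of 19 tested genes fell and 2 rose (median -0.42), beside 9.97% and 9.17% of all genes. The list's median was also -0.42 in the libraries labelled ZFP36L1 against NT. LSM5, a subunit of the LSM ring that binds shortened tails, had 110, 163 and 249 CPM with the CNOT4 hairpin and 465, 529 and 585 CPM with NT (log2 difference -1.69, SE 0.12, adjusted p = 8.3e-11). LSM4 had 106, 195 and 228 CPM with the CNOT4 hairpin and 425, 467 and 611 CPM with NT (-1.44, SE 0.13). These 2 subunits separated the arms widely. LSM6 (-1.59), LSM1 (-0.78), the scavenger decapping enzyme DCPS (-1.88) and PATL1, which joins the ring to the decapping enzyme (-1.22), fell as well, while LSM7 (0.55) and the DCP2 activator DCP1A (0.66) rose. LSM2 and LSM14A also fell in all reads, but over 98% of their reads mapped to several places, and LSM14A stood at 0.38 in uniquely mapped reads. Of 15 exosome and SKI genes 3 fell and 0 rose, EXOSC3, a cap subunit of the exosome, at 0, 46.8 and 95.0 CPM with the CNOT4 hairpin and 108, 229 and 289 CPM with NT (-2.27, SE 0.39). EXOSC6 (-0.69) and SKIC8 (-0.86) were the others.

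Of 14 genes of poly(A) binding and tailing 2 rose and 1 fell, near the shares of all genes, 9.17% and 9.97%. PABPN1, the nuclear poly(A)-binding protein, had 511, 553 and 699 CPM with the CNOT4 hairpin and 966, 1071 and 1397 CPM with NT (-0.96, SE 0.09), in bases shared with another gene, while the cytoplasmic PABPC1 rose by 0.32 (adjusted p = 0.0070, with 12.1% multimapped reads in CNOT4 libraries and 0.5% in NT libraries) and the terminal nucleotidyltransferase TENT4B by 0.46 (adjusted p = 0.037, a call lost in 15 of 27 alternative settings). Of 14 factors of nonsense-mediated decay (NMD) 4 rose and 2 fell. MAGOH, an exon junction protein, had 42.9, 169 and 267 CPM with the CNOT4 hairpin and 288, 393 and 489 CPM with NT (-1.27, SE 0.19, adjusted p = 1.7e-05). UPF1, the central helicase of the pathway, rose by 0.55, UPF3B by 0.83, the kinase SMG1 by 0.91 and RBM8A, with 17.3% multimapped reads in CNOT4 libraries, by 0.57 on the log2 scale. MAGOH separated the arms, and the 4 that rose overlapped. The call of SMG1 was lost in 11 of 27 alternative settings.

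CNOT4 takes its ubiquitin from E2 enzymes, and 6 of 11 E2 mRNAs on the list fell while 0 rose (median -0.53). Among all genes 9.97% fell and 9.17% rose. The E2 list's median was -0.41 in the libraries labelled ZFP36L1 against NT. UBE2D3, of the family that serves many RING ligases, had 178, 249 and 279 CPM with the CNOT4 hairpin and 430, 533 and 604 CPM with NT (log2 difference -1.11, SE 0.10, adjusted p = 1.4e-08). UBE2N, which builds lysine-linked chains with UBE2V1 or UBE2V2, had 87.6, 188 and 223 CPM with the CNOT4 hairpin and 225, 302 and 487 CPM with NT (-0.84, SE 0.15). The arms did not overlap in either. UBE2V1 (-0.76, in bases shared with another gene, as for UBE2N), UBE2V2 (-0.95), UBE2E1 (-0.53) and UBE2E2 (-1.60) were the others. UBE2D1, UBE2D2 and UBE2D4 were not called, UBE2D2 with a median of 181 CPM in CNOT4 libraries and 251 CPM in NT libraries. Which E2s on the list serve CNOT4 was not tested. Among 20 genes of ribosome quality control 4 rose and 2 fell, the falls near the share of all genes. TCF25, a partner of the ligase listerin, had 236, 278 and 405 CPM with the CNOT4 hairpin and 55.4, 81.2 and 109 CPM with NT (1.86, SE 0.17), LTN1, listerin itself, stood at 1.07 (adjusted p = 0.042), ANKZF1 (shared bases) at 2.08 and GIGYF1 at 0.94. NEMF, which marks the stalled peptide, was called at -1.55 (adjusted p = 0.047, shared bases) and the recycling ATPase ABCE1 at -0.84. The calls of LTN1 and NEMF were lost in 14 and 17 of 27 alternative settings. ZNF598, the ligase that senses collided ribosomes, stood at -0.29 (adjusted p = 0.32).

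Ribosomal protein mRNAs formed the largest block of rises, beside 9.17% higher and 9.97% lower among all genes. Of 84 tested 59 rose and 3 fell (median 0.84), with 18 rises and 2 falls (median 0.38) among the 33 with under 5% multimapped reads, and 44 rises and 7 falls when uniquely mapped reads alone were counted. Their summed level was 74887 to 134336 CPM in CNOT4 libraries and 66166 to 76017 CPM in NT libraries. RPS12, with 5.62% multimapped reads in CNOT4 libraries, had 641, 983 and 1232 CPM with the CNOT4 hairpin and 35.9, 42.2 and 59.8 CPM with NT (log2 difference 4.36, SE 0.14). RPS10, with 30.3% multimapped reads, had 657, 894 and 1054 CPM with the CNOT4 hairpin and 7.46, 19.5 and 24.5 CPM with NT (5.64, SE 0.19). The arms were more than 10 times apart in both. RPL5 (-0.50), RPS29 (-0.41) and RPL22 (-0.37, with 72.4% multimapped reads in CNOT4 libraries and a call lost in 15 of 27 alternative settings) were the 3 that fell. In the libraries labelled ZFP36L1 against NT the list's median was 1.18.

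**Figure D4:**
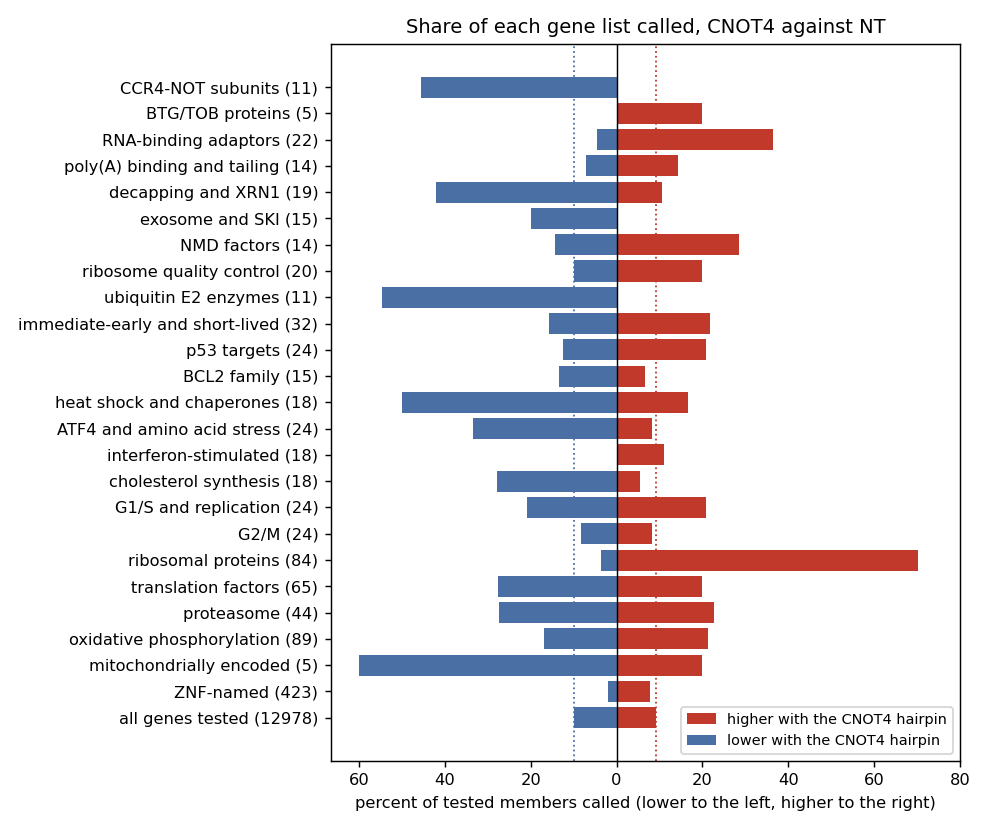
Percent of the tested members of each list of pathways and families (marker lists are not drawn) that were called higher (red, to the right) or lower (blue, to the left) with the CNOT4 hairpin against NT, with the number tested in parentheses and dotted lines at the shares of all genes, 9.17% higher and 9.97% lower. The longest bar to the right is that of ribosomal proteins, 59 of 84.

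Translation factors and the proteasome changed in both directions, beside 9.17% higher and 9.97% lower among all genes. Of 65 translation factors 13 rose and 18 fell. EIF5A had 148, 187 and 335 CPM with the CNOT4 hairpin and 551, 792 and 994 CPM with NT (log2 difference -1.91, SE 0.15), and the helicase EIF4A2, a partner of CCR4-NOT, had 111, 141 and 164 CPM with the CNOT4 hairpin and 416, 511 and 592 CPM with NT (-1.87, SE 0.11, in bases shared with another gene). Both separated the arms. Of 44 proteasome genes 10 rose and 12 fell, with PSMD1 (1.72) and PSMB7 (1.30) among the rises and the chaperone PSMD10 (-1.63) among the falls. Of 89 nuclear genes of oxidative phosphorylation 19 rose and 15 fell. Mitochondrially encoded MT-ATP8 had 87.0, 168 and 268 CPM with the CNOT4 hairpin and 1348, 1779 and 2019 CPM with NT (-3.35, SE 0.17), MT-ND5 (-1.79) and MT-ATP6 (-0.83) fell too, and MT-ND4L rose (1.17). The genes MT-ATP8 and MT-ATP6 overlap (M:8366-8572 and M:8527-9207), so that their reads cannot be fully told apart.

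Of 18 heat shock and chaperone mRNAs tested, 9 fell, 3 rose and 6 were not called (median -0.79). Among all genes 9.97% fell and 9.17% rose. The chaperone list's median was -0.48 in the libraries labelled ZFP36L1 against NT. HSPD1, the mitochondrial chaperonin, had 496, 651 and 722 CPM with the CNOT4 hairpin and 1791, 1865 and 2144 CPM with NT (log2 difference -1.59, SE 0.08, adjusted p = 4.2e-13), and 14.9% of its reads were multimapped in CNOT4 libraries. HSPA9, the mitochondrial HSP70, had 122, 165 and 216 CPM with the CNOT4 hairpin and 391, 498 and 619 CPM with NT (-1.54, SE 0.13). In neither did the arms overlap. The HSP90 co-chaperones FKBP4 (-1.41), AHSA1 (-1.18) and STIP1 (-0.88), HSPA4 (-0.71) and HSP90AB1 (-0.87) fell, whereas the other cytosolic HSP90 gene HSP90AA1 (0.61), HSPB1 (0.56) and HSPH1 (0.48) rose. HSPA1B, called at -2.0, had 100% multimapped reads in CNOT4 libraries.

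Among short-lived and immediate-early mRNAs, typical substrates of fast deadenylation, 7 rose and 5 fell of 32 tested. The shares of all genes were 9.17% and 9.97%. MYC had 0, 26.7 and 40.1 CPM with the CNOT4 hairpin and 48.7, 120 and 146 CPM with NT (log2 difference -2.19, SE 0.43, adjusted p = 0.00060). JUN had 95.2, 298 and 429 CPM with the CNOT4 hairpin and 530, 629 and 895 CPM with NT (-1.16, SE 0.15). Both kept the arms apart, as did JUND (-1.62), MCL1 (-1.09) and ID3 (-1.13). Those that rose included SOX4 (1.36), ID2 (1.19, with 27.8% multimapped reads in CNOT4 libraries), NR4A1 (2.81), JUNB (2.62) and EGR1, which had 6.12, 17.5 and 131 CPM with the CNOT4 hairpin and 0, 0 and 8.58 CPM with NT (4.84, SE 1.23). The highest EGR1 and NR4A1 values came from CNOT4 2 h replicate 3. The list thus had members at both ends of the range, and its median was 0.15.

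The remaining lists are given beside the shares of all genes, 9.17% higher and 9.97% lower, and those of the BCL2, G2/M, ZNF-named and interferon lists lay near or below these shares. Of 24 p53 targets 5 rose, with FDXR (1.90), SESN2 (1.08) and PMAIP1 (0.65) among them, and 3 fell, BAX, CCNG1 (-1.14) and the p53 ligase MDM2 (-0.73, shared bases). Of 15 BCL2 family genes 1 rose, PMAIP1, and 2 fell, BAX and MCL1. Of 24 genes of the ATF4 and amino acid response 8 fell, with SLC7A5, CEBPB (-1.97), DDIT4 (-1.89) and ATF5 (-1.78) the lowest, and 2 rose, PHGDH (1.12), which starts serine synthesis, and SESN2. In cholesterol synthesis 5 of 18 fell and 1 rose. SQLE, the squalene epoxidase, had 23.4, 39.3 and 49.7 CPM with the CNOT4 hairpin and 84.6, 116 and 213 CPM with NT (-1.79, SE 0.23), INSIG1 (-0.96) and FDFT1 (-0.87) fell too, and FDPS rose (1.02). Of 24 genes of G1/S and replication 5 rose, MCM5 (1.08) and CDT1 (0.90, a call lost in 16 of 27 alternative settings) among them, and 5 fell, RRM2 (-0.83), MCM3 (-0.77) and MCM2 (-0.64) among them. Of 24 G2/M genes 2 rose, NUSAP1 (0.52) and CDC20 (0.85, with 13.2% multimapped reads in CNOT4 libraries), and 2 fell, AURKA and CCNA2 (-0.82 each). Of 423 ZNF-named genes tested, 33 rose and 8 fell (median 0.29), and of 18 interferon-stimulated genes 2 rose and 0 fell.

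The libraries labelled ZFP36L1 gave large differences from NT too, 2367 genes higher (18.1%) and 2117 lower (16.2%) of 13055 tested. ZFP36L1 mRNA itself stood at 0.78 in those libraries against NT on the log2 scale. Since both comparisons share the NT libraries, they are set side by side here and not correlated. BAX stood at -4.20 for CNOT4 and -3.37 for the libraries labelled ZFP36L1, each against NT, RPS10 at 5.64 and 6.08, TNRC6B at 2.13 and 1.33, and CNOT6 at -1.72 and -1.02. List medians in the same order were -0.33 and -0.32 for NMD factors and -0.83 and -0.87 for mitochondrially encoded mRNAs. They had opposite signs for exosome and SKI genes (-0.11 and 0.15) and for short-lived mRNAs (0.15 and -0.41). Set directly against the libraries labelled ZFP36L1, 159 of 12619 genes (1.26%) were higher and 244 (1.93%) lower with the CNOT4 hairpin. Without CNOT4 2 h replicate 3 the direct counts were 551 higher and 681 lower. Of the genes called against NT, 81 higher and 132 lower ones were also called in that direct test. Both tests use the same 9 CNOT4 libraries, so genes picked as extreme against NT are favoured in the direct test. Passing it is not independent support. Among the genes described here, direct differences that passed included those of CAVIN1 (0.82), EEF1A2 (0.85), CACNG8 (1.18), TNRC6B (0.82), ZFP36L1 (1.04), EGR1 (3.23), SLC7A5 (-1.12), IARS2 (-1.79), RRS1 (-0.67), UBE2D3 (-0.67), LSM4 (-0.60), FKBP4 (-0.75) and HSPD1 (-0.55). They did not pass for BAX (-0.84, adjusted p = 0.47), REV3L (0.50, adjusted p = 0.25) or CNOT6 (-0.67, adjusted p = 0.16). ZFP36L1 is itself the gene that the reference libraries of the direct test are labelled as knocked down for. The part of this in its direct difference was not tested.

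The metabolic label was read as conversions per covered T position. Pooled over the 4065 genes measured in every library, the rate at 0 h was 1.49, 1.33 and 1.47% in the 3 CNOT4 libraries and 1.86, 1.71 and 1.76% in the 3 NT libraries, so that the arms did not overlap (difference -0.349 percentage points, exact permutation p = 0.1, the smallest that 3 against 3 allows). At 2 h it was 1.25, 1.23 and 0.733% in CNOT4 libraries and 1.39, 1.47 and 1.36% in NT libraries. At 4 h it was 1.06, 1.02 and 0.963% in CNOT4 libraries and 1.11, 1.10 and 1.07% in NT libraries. In this pooled rate the arms stayed apart at each time, and the gap narrowed to 4 h. In an unweighted mean over genes they were apart at 0 h but overlapped at 2 h and 4 h. At 4 h that mean was 0.991, 0.978 and 0.843% in CNOT4 libraries and 0.968, 0.950 and 0.929% in NT libraries. In genes with under 5% multimapped reads the arms overlapped at 4 h only (CNOT4 libraries up to 1.07%, NT libraries from 1.05%). The share of T>C reads kept the arms apart at each time. The values below are of the pooled rate. The fitted loss of label per hour, on the natural log scale, was 0.0847 with the CNOT4 hairpin and 0.121 with NT (difference -0.0361, exact permutation p = 0.21 over 8000 splits within chase times), so that the difference did not pass the test. The lowest value at 2 h was that of replicate 3, and without it the difference was -0.0371. At 2 h, 75.1% of the label at 0 h was left in CNOT4 libraries (87.0% without replicate 3) and 79.2% in NT libraries, and at 4 h 71.2% was left in CNOT4 libraries and 61.6% in NT libraries.

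**Figure D5:**
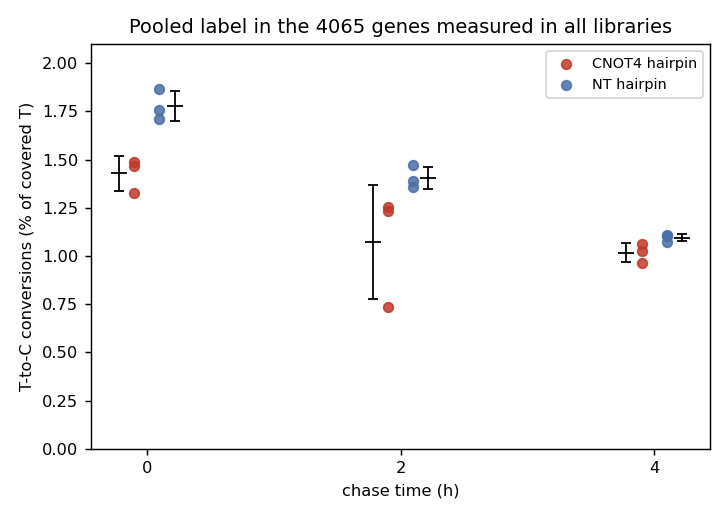
T-to-C conversions in percent of covered T positions, pooled over 4065 genes, against chase time in h, a point for each of 3 libraries (red, CNOT4 hairpin; blue, NT), with mean ± SD beside the points. At 0 h the CNOT4 libraries reach 1.49% and the NT libraries start at 1.71%, and at 4 h they reach 1.06% and start at 1.07%.

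Gene by gene, 0 of 7089 genes passed for label at 0 h (607 at an unadjusted p under 0.05). In other settings 2 were called higher by limma on the rates, 29 lower among genes over 20 CPM and 273 lower from T>C reads. The share of T>C reads also depends on covered T positions per read, 27.7 to 31.3 in CNOT4 libraries and 37.1 to 37.8 in NT libraries. The part of this in the 273 was not tested. Of the 7089 genes, 65.6% had less label with the CNOT4 hairpin (median log2 difference -0.21). The lower ones with the smallest p were RPL34, a ribosomal protein, at 1.31 ± 0.07% of T positions in CNOT4 libraries and 2.61 ± 0.38% in NT libraries, RPL35A at 0.954 ± 0.14% and 1.77 ± 0.05%, RPS4X at 1.01 ± 0.09% and 1.58 ± 0.12%, and the decay factor KHSRP at 1.30 ± 0.02% and 1.92 ± 0.09% (SD, n = 3 each, adjusted p = 0.119 for each). Their means lay further apart than the SDs, but none passed the threshold. Those higher with the smallest p were ZBTB43, PGGT1B, LIN54 and TACC1, at 1.88 (PGGT1B) to 2.88% (ZBTB43) in CNOT4 libraries and 0.0886 (PGGT1B) to 0.254% (TACC1) in NT libraries (adjusted p = 0.13 for ZBTB43 and 0.14 for the others). For loss of label, 0 of 7089 genes passed (121 at an unadjusted p under 0.05). In simulated data, with 6889 of 7089 genes left unchanged, this test recovered 0 of 100 genes changed by 0.15 per hour and 2 of 100 changed by 0.3. A count of 0 therefore cannot show that turnover was unchanged. The median loss per hour was 0.128 with the CNOT4 hairpin and 0.168 with NT, and 63.6% of genes had the slower loss with the CNOT4 hairpin. STK38L, COMMD10, TBC1D31 and SPAG9 had the smallest p among the slower and MYO6, KLHL7, LBR and EIF2A among the faster, each with an adjusted p of 1.

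Label was also summed over the lists. Short-lived mRNAs carried 2.40 ± 0.11% converted T positions at 0 h in CNOT4 libraries and 3.00 ± 0.11% in NT libraries, and kept 16.9% and 11.3% of it at 4 h. BTG/TOB mRNAs carried 2.31 ± 0.20% in CNOT4 libraries and 2.52 ± 0.11% in NT libraries and kept 19.9% and 8.36%. No other list kept so little in either arm, and the RNA-binding adaptors kept 31.9% and 24.5%. CCR4-NOT subunits carried 1.63 ± 0.17% in CNOT4 libraries and 2.02 ± 0.29% in NT libraries and kept 51.8% and 47.8%. Ribosomal proteins carried 0.981 ± 0.02% in CNOT4 libraries and 1.36 ± 0.03% in NT libraries at 0 h, 0.846 ± 0.02% in CNOT4 libraries and 1.11 ± 0.04% in NT libraries at 2 h, and 0.936 ± 0.03% in CNOT4 libraries and 1.10 ± 0.01% in NT libraries at 4 h (SD, n = 3 libraries each, with no test over the lists). The CNOT4 value at 4 h was above that at 2 h. MYC kept 10.2% of its label in CNOT4 libraries and 13.4% in NT libraries, and MCL1 kept 22.1% and 13.6%, so that single short-lived mRNAs lay on either side.

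The share of a gene's reads in its last counted interval was also measured, a choice made after the CNOT4 intervals were seen. Over 8370 genes with 2 or more intervals it was 74.8 to 79.3% (median 76.4%) in CNOT4 libraries and 77.9 to 79.7% (median 78.6%) in NT libraries, with ranges that overlap (exact permutation p = 0.00128). An unweighted mean was taken over those of these genes with enough reads, a set that differs between libraries. Its medians were 77.5% in CNOT4 libraries and 78.5% in NT libraries (exact permutation p = 0.0117). In both measures the medians differed by less than the range of the CNOT4 libraries. In the libraries labelled ZFP36L1 the share of reads was 74.8 to 78.1%, and in the other 6 arms 76.2 to 80.4%. TCF25 is an example, with 41.0% of its pooled reads in the last interval in CNOT4 libraries and 69.4% in NT libraries, and BAX is one of the opposite kind, with 100% in CNOT4 libraries and 86.0% in NT libraries.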

How the data were processed

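SLAM-seq libraries from HEK293T cells were used for 2 arms, CNOT4 and NT, at 0, 2 and 4 h of chase. The authors ran SlamDunk 0.4.3 on hg38 with multimapped reads kept and deposited tables of 69079 3′ UTR intervals in 19761 genes, with whole-number counts of reads, T>C reads, multimapped reads, covered T positions and conversions. The deposited CPM column is relative to mapped reads and was used only to filter label tests. How strand was handled is not given in the sources used here. Genes with shared counted bases cannot be told apart there. GENCODE 44 named 19501 genes.

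Counts were summed per gene. Levels were tested with edgeR 4.0.16 (quasi-likelihood test, TMM, filterByExpr, chase time as factor) on the 18 libraries, and p-values were adjusted by Benjamini-Hochberg over all genes tested. Normalised CPM in the text are TMM-scaled CPM of the reads in the intervals. Label tests modelled conversions with the log of T coverage as an offset and kept genes above 5 CPM. Single values were tested by two-sided exact permutation with scipy 1.17.1. Scripts were tested on simulated data. There the level test recovered 14 of 98 genes changed 2-fold and 42 of 97 changed 4-fold, with 12366 of 12561 genes left unchanged. In the real libraries 19.1% of genes were called, so recovery in them may differ. In simulated data the label test at 0 h recovered 8 of 100 genes changed 2-fold and 35 of 100 changed 4-fold, with 6889 of 7089 left unchanged. Genes that were not called are therefore not shown to be unchanged.

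Named genes were CNOT4, members of the lists, and the 10 largest called differences in each direction with at least 50 CPM in the higher arm, under 5% multimapped reads, no shared counted bases and 1 sign at all times; for chase time the 3 smallest p, and for label the 4 smallest in each direction. Members and lists were chosen with earlier results of these data known. Alternatives were DESeq2 1.42.0 size factors and test, library totals, no low-count filter, uniquely mapped reads, 0 h libraries only, 8 h libraries added, a replicate block, the 7 other knockdowns as reference, limma 3.58.1 on rates, and each library left out. Depth was 1781724 to 13359455 reads per library. The tables count reads and not molecules, and p-values measure the spread between the replicates. The values of some list members are not reported here.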

Additional observations from a re-analysis of the deposited data

Results flagged for a closer look

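Over 286 sets of 9 libraries (a level or a library measure in 1 arm), 31 had a highest or lowest library that stood far from its arm by Dixon's 95% limit, where chance alone flags about 1 in 20. Of these, 25 were in the CNOT4 arm, and 23 of the 25 came from CNOT4 2 h replicate 3, the library with 6495 detected genes.

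That library had the highest level of REV3L (539 CPM), CNOT3 (84.6 CPM), CNOT10 (171 CPM), TNRC6C (346 CPM), RC3H1 (249 CPM), SKIC8 (139 CPM), JUND (120 CPM), EGR1 (131 CPM), NR4A1 (65.5 CPM), PSMD10 (116 CPM) and NUSAP1 (299.6 CPM). It had the lowest level of CNOT2 (54.0 CPM), RBM8A (193 CPM), GIGYF1 (31.9 CPM), ABCE1 (55.7 CPM), UBE2N (87.6 CPM), UBE2V1 (47.6 CPM), MCL1 (68.4 CPM), RPL22 (346 CPM), CDT1 (9.78 CPM), LSM14A (10.2 CPM) and LSM2 (0 CPM). The other 2 of the arm were the highest AGO3 (200.1 CPM, CNOT4 2 h replicate 2) and the highest INSIG1 (124 CPM, CNOT4 0 h replicate 2).

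In NT, KCTD17 (17.7 CPM) and ANKZF1 (18.3 CPM) were highest in 2 h replicate 3, EGR1 (8.58 CPM), MT-ND4L (389 CPM) and CCNA2 (376 CPM) in 2 h replicate 2, and RC3H1 (0.283 CPM) was lowest in 4 h replicate 1.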

How the results depend on the processing

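Higher genes numbered 642 with 0 h libraries only, 1794 with 8 h libraries added and 2350 against the 7 other knockdowns in place of NT, and lower genes 821, 1794 and 3240. With 1 library left out at a time, 992 to 1962 were higher and 1147 to 1888 lower, the top of both without CNOT4 2 h replicate 3, and against the libraries labelled ZFP36L1, with its top without the same library, 94 to 551 were higher and 173 to 681 lower. Genes with more label at 0 h numbered 4 from T>C reads, 1 when centred on the pooled rate, 2 with limma and 0 to 1 with a library left out, and genes with less label 273 from T>C reads and 29 over 20 CPM. Counts from T>C reads also depend on covered T positions per read, which were fewer in CNOT4 libraries. With 8 h libraries added, 4 genes lost label more slowly, and the pooled difference in loss was -0.0295 per hour (exact permutation p = 0.0345). The CNOT4 sum stood at 0.048 with library totals, 0.26 at 0 h only, 0.20 in uniquely mapped reads without CNOT4 2 h replicate 3, and -0.11 to 0.18 with a library left out.

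Signs turned only in genes that had not passed the test, and in LSM14A. CNOT10 stood at 0.11 with library totals, 0.046 with 8 h added, 0.031 against the 7 other knockdowns and -0.41 to 0.038 with a library left out, CNOT2 at 0.0056 with library totals, 0.23 at 0 h only, 0.047 in uniquely mapped reads without CNOT4 2 h replicate 3 and -0.16 to 0.018 with a library left out. CNOT3 stood at -0.70 in uniquely mapped reads, -0.73 at 0 h only and -0.71 in uniquely mapped reads without CNOT4 2 h replicate 3, LSM14A at 0.38 in uniquely mapped reads, RPS3 at 0.17 and ZNF598 at 0.013 at 0 h only. Of 139 genes with settings, 49 lost the call under 1 or more. The causes were not tested.

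Replicate numbers did not pair the libraries: deviations of same-numbered libraries correlated at -0.03 to 0.02, those of different numbers at -0.02 to 0.04. With the replicate number as a block, 1124 genes were higher and 1236 lower. Leaving out genes over 10% converted in NT removed 0 genes. CNOT4 2 h replicate 3 had the fewest reads, 1781724, and detected 6495 genes, while CNOT4 2 h replicate 1 had 2147447 reads and detected 12100. What sets replicate 3 apart was not tested. The alternatives that take CNOT4 intervals one by one or leave out that library in uniquely mapped reads were chosen after the data were seen.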
